A study of Homo sapiens with 7 samples.

Results

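Cancer-testis and germline genes were followed in RNA-seq of the human melanoma cell line 501Mel. Members were taken by gene symbol: MAGE families A to H, SSX, GAGE, XAGE, PAGE, CTAG, numbered PRDM genes, symbols that start with DAZ, and PRAME, TEX14, TEX15, SYCP2 and SYCP3. The symbols DDX4 and MAEL, which the rule also names, were not among the members found and so were not analysed here. In all, 53 of the 21305 genes in the table met the rule, 32 of them on the X chromosome, and 44 had a mean normalized count of at least 10 and entered the test. SSX2IP, CTAGE3P, DAZAP1 and DAZAP2 met the rule through the letters of their names alone and belong to none of the families.

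All 7 libraries came from pools of 501Mel cells that carried a stably integrated lentiviral vector (Tet-pLKO-puro) with a short hairpin RNA, induced by doxycycline for 3 days. The control, shlacZ (n = 3), targets a bacterial mRNA, and sh4 (n = 2) and sh8 (n = 2) target the long non-coding RNA GRASLND, whose loss was studied for its effect on the melanoma transcriptome. The pools were selected as mixed transductants, not as single clones, and nothing in the labels says that the libraries came from separate cultures, so p-values measure the spread between these libraries, which may be technical. GRASLND itself was at 309, 329.9 and 289.7 normalized counts in the control, 175 and 131 with sh4 and 227 and 163 with sh8. Every knockdown library was below every control library, but limma called GRASLND lower with sh4 alone (log2 fold change -1.02, SE 0.21, adjusted p = 0.0066) and not with sh8 (-0.68, SE 0.21, adjusted p = 0.110). With both hairpins together GRASLND was lower past the adjusted p, by less than the fold threshold of 1 (-0.85, SE 0.19, adjusted p = 0.0402, limma).

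Depth, as reads counted over genes, ran from 13337317 to 22855232 per library. The first shlacZ library stood apart from the other two: the mean chi-square per gene was 28.5 and 27.8 against them and 8.64 between them, beside 19.0 for the sh4 pair and 16.2 for the sh8 pair. The 7 melanocytic markers summed to 135600 to 146300 normalized counts in the control, 51870 to 59740 with sh4 and 101500 to 104500 with sh8, and the part of this difference in the results was not tested. MLANA, PMEL, TYRP1, DCT and SOX10 were below the control in every knockdown library. TYR was not, at 8192 to 9420 in the control, 9183 and 10290 with sh4 and 9200 and 11310 with sh8. MITF was below the control with sh4 but within its range with sh8. Of 4 markers of somatic testis cells only AMH was among the genes, at 29 to 51.3, and of 4 fibroblast markers COL1A1 and PDGFRA were, summing to 6.29 to 19.4. None of 3 keratinocyte markers was among the genes, and of 3 immune markers CD68 was, at 441 to 675.

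Cancer-testis genes are active in male germ cells, silent in most other adult tissues and switched on again in many tumors, where their products can be seen by T cells. Many lie on the X chromosome in families of recent copies, and DNA methylation of CG sites in their promoters is the best known means of their silencing. MAGE proteins share a fold that binds RING-type ubiquitin ligases. Type I MAGE genes (A, B and C) are germline-restricted, whereas type II genes (D, E, F and H) are expressed in many tissues. PRDM proteins join a PR domain, related to histone methyltransferase domains, to zinc fingers, and some of them act in germ cells.

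Recent copies matter for the measurement because reads from a shared stretch can be assigned to either copy. Of the 44 tested members, 15 shared over 50% of the 100-base windows of their transcripts with another gene, 19 over 5%, and 23 shared none. The coding sequences were identical in CTAG1A and CTAG1B (540 bases), XAGE1A and XAGE1B (243), MAGEA2 and MAGEA2B (942), MAGED4 and MAGED4B (2223), and SSX2 and SSX2B (564). MAGEA3 and MAGEA6 differed at 18 of 942 coding bases (98.09% identity), and the longest identical run was 308 bases. The densest 120-base stretch of differences, coding positions 804 to 923 of each gene on hg38, is shown to let the 2 genes be told apart. Capitals mark the 6 differing bases.
MAGEA3, chrX:152701636-152701755, plus strand: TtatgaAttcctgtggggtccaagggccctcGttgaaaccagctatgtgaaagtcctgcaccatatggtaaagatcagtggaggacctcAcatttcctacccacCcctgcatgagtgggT
MAGEA6, chrX:152766728-152766847, minus strand: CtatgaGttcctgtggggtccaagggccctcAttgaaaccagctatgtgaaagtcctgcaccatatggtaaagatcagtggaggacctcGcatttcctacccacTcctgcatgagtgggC

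By contrast, MAGEC1, PRDM1 and MAGED2 shared no window with another gene, and PRDM7 shared 1.63%, all with PRDM9. Their promoters (RefSeq, GRCh38.p14, 300 bases, from 250 before the start) are shown because these members were called in at least 1 comparison and their reads are their own. Only the first listed start of each gene was taken, and which start these cells use was not measured. For PRDM1 and PRDM7 the window lies within the span of the gene, which begins further upstream. Capitals mark the CG sites that DNA methylation acts on.
PRDM7, chr16:90077282-90077581, minus strand: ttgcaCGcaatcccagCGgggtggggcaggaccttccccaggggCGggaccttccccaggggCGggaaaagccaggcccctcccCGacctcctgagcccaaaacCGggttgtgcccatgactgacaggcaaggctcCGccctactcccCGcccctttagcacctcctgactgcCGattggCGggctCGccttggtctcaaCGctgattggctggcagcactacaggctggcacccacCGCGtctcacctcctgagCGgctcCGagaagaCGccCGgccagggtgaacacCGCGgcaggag
PRDM1, chr6:106086086-106086385, plus strand: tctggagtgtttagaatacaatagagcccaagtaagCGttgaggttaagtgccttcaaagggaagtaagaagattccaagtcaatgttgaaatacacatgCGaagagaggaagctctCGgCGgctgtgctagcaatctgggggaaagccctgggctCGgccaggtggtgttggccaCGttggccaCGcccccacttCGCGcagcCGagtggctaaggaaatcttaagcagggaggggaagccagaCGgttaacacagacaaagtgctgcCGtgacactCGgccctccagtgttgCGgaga
MAGEC1, chrX:141903644-141903943, plus strand: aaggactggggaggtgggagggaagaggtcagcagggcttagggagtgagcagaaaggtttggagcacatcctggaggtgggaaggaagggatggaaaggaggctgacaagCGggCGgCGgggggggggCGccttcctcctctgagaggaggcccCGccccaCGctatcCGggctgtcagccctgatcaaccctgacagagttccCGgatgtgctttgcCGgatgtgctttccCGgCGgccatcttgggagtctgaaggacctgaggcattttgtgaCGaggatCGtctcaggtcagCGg
MAGED2, chrX:54807495-54807794, plus strand: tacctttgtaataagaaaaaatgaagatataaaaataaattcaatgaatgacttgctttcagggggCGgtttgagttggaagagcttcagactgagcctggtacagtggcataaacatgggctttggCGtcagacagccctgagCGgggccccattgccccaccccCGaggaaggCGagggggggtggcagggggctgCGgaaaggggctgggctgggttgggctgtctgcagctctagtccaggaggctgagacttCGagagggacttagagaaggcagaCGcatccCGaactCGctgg
The 4 promoters held 20, 14, 14 and 10 CG, against a median of 14 over 35116 promoters of the same length. Over 19 X-linked cancer-testis members with a promoter in the table the median was 13 and the range 1 to 21. The letters CACGTG, which read the same on both strands, occurred in 4 of these 19 (21.1%) and in 7.26% of all promoters. The 4 were PAGE5 and 3 copies of 1 family, GAGE12F, GAGE12J and GAGE13, and no MAGE, SSX or XAGE promoter in the table held them. These counts are a description of sequence, and methylation was not measured here.

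In the control, levels per length spanned PRAME at the top to PRDM1 at the bottom. PRAME, an antigen that acts as the substrate receptor of a cullin ubiquitin ligase and is used as a marker of melanoma, stood at 2945 ± 135 normalized counts per kilobase (SD, n = 3), and no other member's range reached it. MAGEA4 followed among the cancer-testis genes at 917 ± 120, then SSX2 at 848 ± 52, CTAG2 at 802 ± 219, MAGEB2 at 802 ± 149, MAGEA3 at 764 ± 146 and PAGE5 at 704 ± 135, and each of these overlapped the next in range. Of the PRDM genes, PRDM2 was highest at 431 ± 22.7 and PRDM1 lowest at 0.26 ± 0.13. TEX15 (19.4 ± 1.26) and SYCP2 (7.47 ± 0.22), both of meiotic germ cells, were low. From PRAME down, only PRAME and MAGEE1 did not overlap the member below them, so the order in between was not resolved gene by gene.

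**Figure D1:**
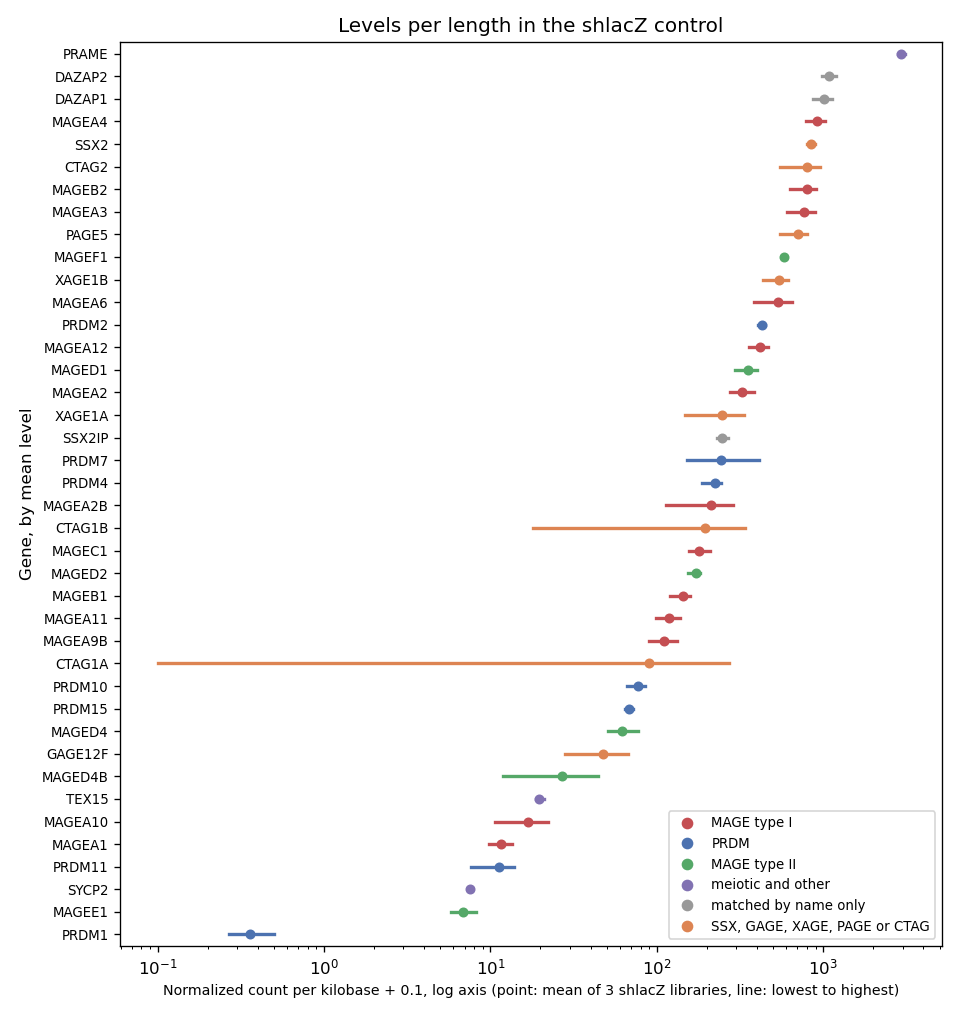
Normalized counts per kilobase of canonical transcript (log axis, 0.1 added) for the 40 tested members outside the Y chromosome in the 3 shlacZ libraries; points are means and lines run from the lowest to the highest library. PRAME stands alone at 2945, and CTAG1A runs from 0 to 269.7 because reads were assigned to it, and not to its copy CTAG1B, mainly in 1 library.

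Called members were those with a Benjamini-Hochberg adjusted p under 0.05 over all 15420 genes tested and an absolute log2 fold change over 1. With both hairpins together (n = 4) against the control (n = 3), 1 of 44 members was called (2.27%), PRDM7, against 1.99% of all genes, and 0.694% of all genes were called lower as PRDM7 was. With sh4, 5 members were called (11.4%), against 8.16% of all genes. MAGED2 and PRDM1 were higher (4.79% of all genes) and GAGE12F, PRDM7 and TEX15 lower (3.37%). Of these, PRDM1 reached the minimum mean only through its high sh4 libraries. GAGE12F, with 0 reads under sh4, reached it only through its control and sh8 libraries. With sh8, 3 were called (6.82%), against 1.15%, and MAGEC1, PRDM7 and XAGE1A were all lower (0.506% of all genes). Between sh4 and sh8, 4 were called (9.09%), against 3.19%: MAGEC1 and PRDM1 were higher (1.93% of all genes) and GAGE12F and TEX15 lower (1.26%) with sh4. By the adjusted p alone, 3 members passed with both hairpins (4.61% of all genes), 8 with sh4 (22.5%) and 5 with sh8 (2.92%). The sh8 count fell to 1 (MAGEC1) when either sh8 library was left out, and it was 5, a DAZ gene among them, when the first shlacZ library was. Both hairpins share the control libraries, and the median log2 fold change of the members was -0.35 with sh4 and -0.12 with sh8, beside -0.0076 and -0.0099 over all genes. Outside the DAZ genes and those matched by name only, 37 tested members remained. Of these 2.70% were called with both hairpins (1.99% of all genes), 13.5% with sh4 (8.16%) and 8.11% with sh8 (1.15%). The sh4 share still counts PRDM1 and GAGE12F, which reached the minimum mean only through some groups. The sh8 share counts XAGE1A, whose sum with XAGE1B was not called. The medians of the 37 members were -0.345 with sh4 and -0.079 with sh8.

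**Figure D2:**
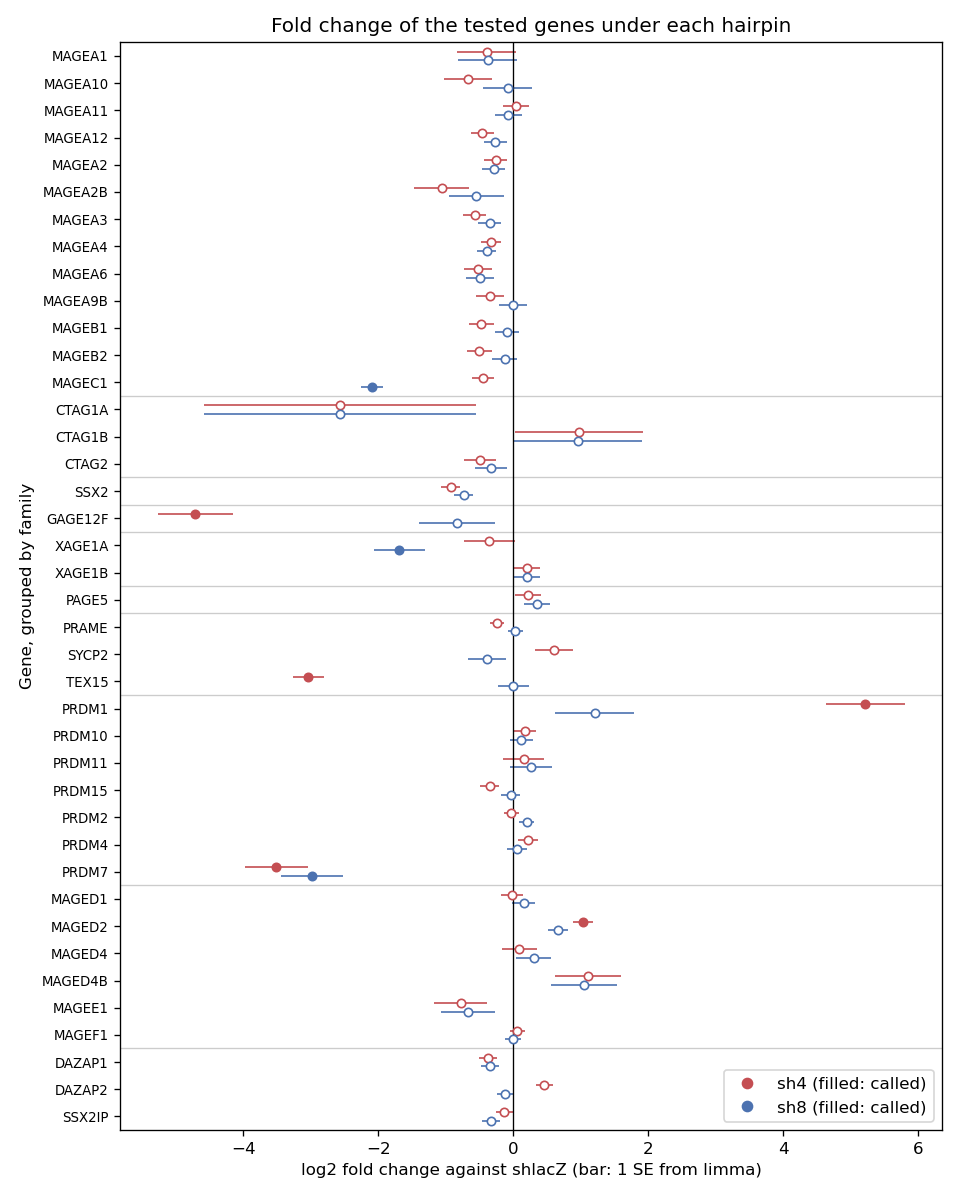
Log2 fold change against shlacZ of the 40 tested members outside the Y chromosome with sh4 (red) and sh8 (blue); bars are 1 SE from limma and filled points are called. PRDM7 is filled on the left under both hairpins (-3.51 and -2.98), TEX15 with sh4 alone (-3.03) and MAGEC1 with sh8 alone (-2.09), and most type I MAGE genes lie just left of 0.

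PRDM7 was the member called under both hairpins. It encodes a histone H3 lysine 4 methyltransferase and is a primate copy of PRDM9, which places the sites of meiotic recombination (chr16:90056566-90092072, minus strand, hg38). Normalized counts were 1394, 572 and 513 in the control, 100.5 and 41.05 with sh4, and 116 and 74.6 with sh8. The highest knockdown library was thus below the lowest control library, although the first shlacZ library was well above the other two. PRDM7 fell by 3.25 on the log2 scale with both hairpins (SE 0.41, adjusted p = 0.0050), by 3.51 with sh4 (SE 0.46, adjusted p = 0.00087) and by 2.98 with sh8 (SE 0.46, adjusted p = 0.0109, limma). The sh8 call was lost without either sh8 library (adjusted p = 0.0508 and 0.129) and the difference between hairpins was not past the threshold (-0.53, SE 0.51, adjusted p = 0.605). In bulk RNA, fewer cells with a transcript and less of it per cell cannot be told apart.

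TEX15 differed between the hairpins. Its product is needed in male germ cells for transposon silencing and for meiosis. Normalized counts were 239, 214 and 215 in the control, 21.5 and 32.1 with sh4, and 244 and 204 with sh8. Both sh4 libraries were far below all others, while the sh8 libraries spanned the control range. The log2 fold change was -3.03 with sh4 (SE 0.23, adjusted p = 8.0e-05) and 0.0039 with sh8 (SE 0.23, adjusted p = 0.995), and sh4 was below sh8 by -3.04 (SE 0.25, adjusted p = 0.00075, limma). This call held without each library in turn. In the fit with 2 levels, where the difference between hairpins counts as spread, TEX15 was not called with both hairpins (-1.52, SE 0.75, adjusted p = 0.250). Averaged over the hairpins with 3 groups fitted, it had the same -1.52 with an SE of 0.19 and an adjusted p of 0.0011.

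MAGEC1, a type I MAGE gene with a long repetitive first part of its protein (chrX:141903894-141909374, plus strand), showed the opposite order. The control libraries held 668, 890.3 and 729 normalized counts, the sh4 libraries 517 and 596, and the sh8 libraries 189.8 and 165. All 4 knockdown libraries were below the control, and the sh8 libraries were lowest. MAGEC1 fell by 2.09 with sh8 (SE 0.17, adjusted p = 0.00064), its value with sh4 was -0.45 (SE 0.17, adjusted p = 0.0812), and sh4 was above sh8 by 1.65 (SE 0.18, adjusted p = 0.0018, limma). The sh8 call held without each library in turn.

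SSX2, a nuclear protein of germ cells known from the SS18-SSX fusion of synovial sarcoma, was lower under both hairpins by less than the fold threshold. Its counts were 1017, 1150 and 1090 in the control, 512 and 637 with sh4, and 688 and 621 with sh8, with no overlap between control and knockdown. The log2 fold change was -0.83 with both hairpins (SE 0.13, adjusted p = 0.0146), -0.92 with sh4 (SE 0.14, adjusted p = 0.0018) and -0.73 with sh8 (SE 0.14, adjusted p = 0.0257, limma). With both hairpins the adjusted p missed the threshold when the second (0.0885) or the third shlacZ library (0.0710) was left out and without the variance trend (0.0523). Every window of the SSX2 transcript also occurs in SSX2B, so the reads under SSX2 may belong to either gene. Groups did not overlap for 9 of the 44 members in this comparison, 7 lower and 2 higher in the knockdown, beside 11.0% and 10.2% of all genes in those directions. Of the 7 lower ones, 2 were matched by name only.

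**Figure D3:**
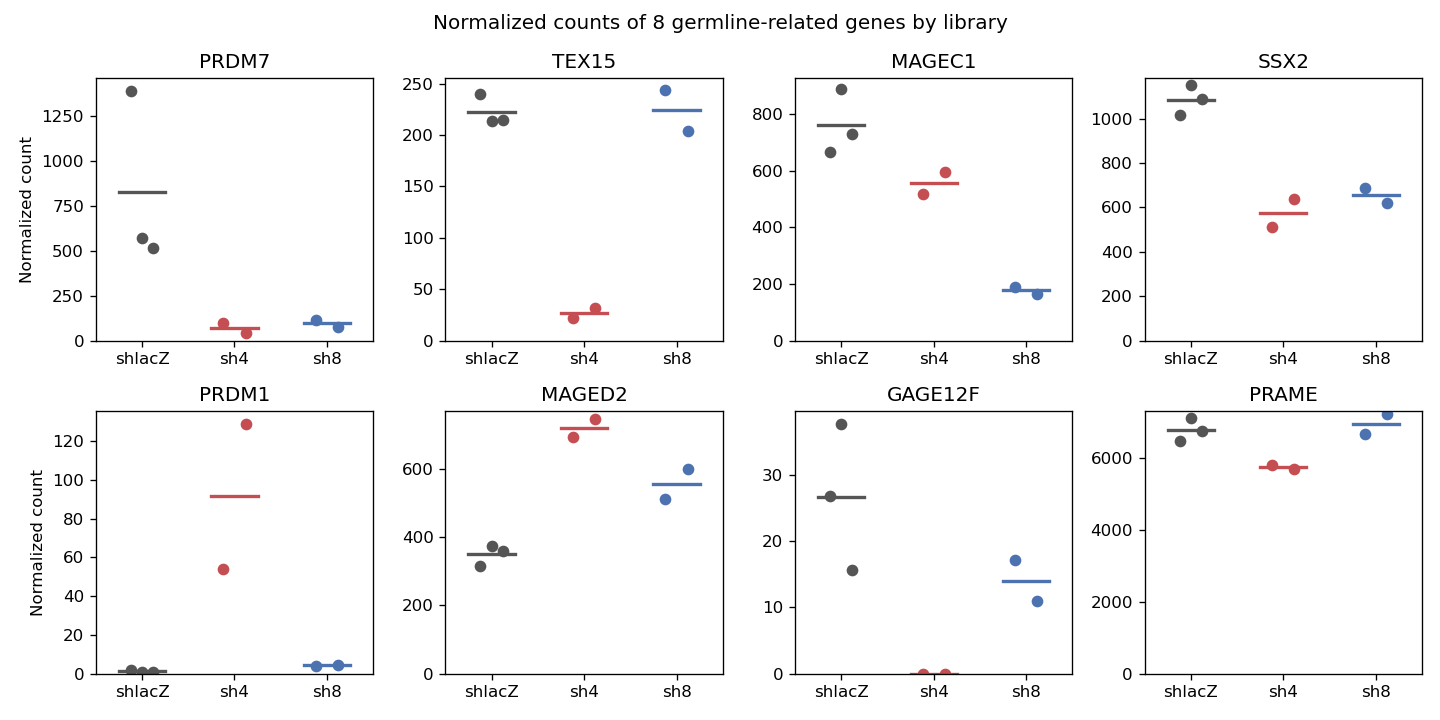
Normalized counts of 8 members by library in shlacZ (grey, n = 3), sh4 (red, n = 2) and sh8 (blue, n = 2); lines are group means and each panel has its own axis from 0. TEX15 drops with sh4 alone (means 223, 26.8 and 224) and MAGEC1 most with sh8 (762, 557 and 177), while PRAME stays between 5701 and 7228.

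PRDM1 and MAGED2 were higher. PRDM1 (BLIMP1), a repressor that specifies primordial germ cells and also drives plasma cell differentiation, is on chromosome 6 at chr6:105993463-106109939. It was close to undetected in the control, at 2.06, 1.05 and 0.87 normalized counts, and reached 54.2 and 129 with sh4 but 3.95 and 4.55 with sh8. These values rest on 4 reads in the control, 221 with sh4 and 8 with sh8. The ratio of sh4 to control was 76.3 with a 95% counting interval of 29.4 to 283, and of sh4 to sh8 23.1 (11.5 to 54.1), intervals that cover counting error only. Its mean over all libraries, 28.0, passed the minimum of 10 only through the sh4 libraries, so that among tested genes it had to differ and its place in the counts of called members is a description. The fitted values were 5.22 with sh4 (SE 0.58, adjusted p = 0.00036) and 4.02 between the hairpins (SE 0.64, adjusted p = 0.0065), and the latter was no longer past the threshold without the second sh4 library (adjusted p = 0.113) or the first sh8 library (0.0524). PRDM1 is also expressed outside the germline, so its level by itself marks no germ cell state.

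MAGED2, a broadly expressed type II gene known from transient antenatal Bartter syndrome (chrX:54807599-54816015), was measured at 316, 375 and 360.2 in the control, 693 and 748 with sh4, and 513 and 599.7 with sh8. No knockdown library overlapped the control. The rise was 1.04 with sh4 (SE 0.15, adjusted p = 0.0012) and 0.66 with sh8 (SE 0.15, adjusted p = 0.0429), below the fold threshold in the latter, and 0.85 with both hairpins (SE 0.16, adjusted p = 0.0222, limma). The last of these missed the threshold when the second (0.0893) or the third shlacZ library (0.0855) or the first sh4 library (0.0674) was left out, and without the variance trend (0.0595). Without the first shlacZ library the sh4 value was 0.97 and without the second sh4 library 0.99, both just under the fold threshold.

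The type I MAGE genes had mostly small negative fold changes, and how many passed the test depended on 1 control library. The lowest values were -1.27 with both hairpins and -2.09 with sh8, both for MAGEC1, and -1.06 with sh4 for MAGEA2B. There were 14 in the table, and 13 of them were tested. These count MAGEA2 and MAGEA2B, and MAGEA3 and MAGEA6, as separate genes. Summed, neither pair passed with sh4 (adjusted p = 0.0944 and 0.0513, limma). With both hairpins, 0 of 13 were called by limma, 6 had an unadjusted p under 0.05 (24.1% of all genes did), and limma-voom on reads also called 0. Fold changes were negative in 13 of 13 (12 of 13 after scaling to the total and in limma-voom, where MAGEA11 was positive), with a median of -0.36 beside -0.0063 over all genes. With sh4 the median was -0.46 with 12 negative, with sh8 -0.29 with 12 negative, and 1 gene in each was lower past the adjusted p alone: MAGEA3 with sh4 and MAGEC1 with sh8. In these directions 11.9% of all genes with sh4 and 1.54% with sh8 did so. Without the first shlacZ library the number past the adjusted p was 9 of 13 with sh4 (17.2% of all genes), 4 with sh8 (5.74%) and 1 with both (2.22%), and the medians were -0.56, -0.40 and -0.47.

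Levels by library show where that library lay. The 14 genes summed to 6674 normalized counts in the first shlacZ library and to 9564 and 8700 in the others, against 5440 and 6629 with sh4 and 6193 and 6302 with sh8. The first control library was thus nearly level with the highest knockdown library. MAGEA4, which shares no window with another gene, was at 1358, 1766 and 1618 in the control, 1125 and 1384 with sh4 and 1196 and 1198 with sh8 (both hairpins -0.36, SE 0.13, adjusted p = 0.130). MAGEB2 was at 1016, 1461 and 1388, then 778 and 1038, then 1099 and 1240 (-0.31, SE 0.18, adjusted p = 0.326). For both, a knockdown library overlapped the control. MAGEA3, whose product with TRIM28 forms a ubiquitin ligase, was at 1018, 1501 and 1335 in the control, 780.4 and 936 with sh4 and 1002 and 996 with sh8. It was lower past the adjusted p with sh4 (-0.57, SE 0.17, adjusted p = 0.0380, limma), but summed with MAGEA6 the value was -0.55 (SE 0.18, adjusted p = 0.0513).

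How reads were divided among copies changed several single-gene values. CTAG1A and CTAG1B encode the same protein, the antigen NY-ESO-1. CTAG1A held 207 normalized counts in the second shlacZ library and 0 in the other 6, while CTAG1B held 13.6 in that library, 171 and 258 in the other controls, and 127 to 222 in the knockdown. Their sum was 171, 221 and 258 in the control, 189.7 and 152 with sh4, and 127 and 222 with sh8. These ranges overlapped, and the summed log2 fold change was -0.34 (SE 0.23, adjusted p = 0.390, limma), whereas CTAG1B alone gave 0.97. XAGE1A was called lower with sh8 (-1.69, SE 0.38, adjusted p = 0.0459), at 71.2, 160.3 and 124 in the control, 92.6 and 82.8 with sh4 and 47.5 and 24.6 with sh8. Its share of the XAGE1A and XAGE1B sum was 26% to 35.9% in the control and 13.6% and 8.26% with sh8. The sum did not follow it, at 274, 446 and 392 in the control, 346 and 408 with sh4 and 349 and 298 with sh8, and its fold change with sh8 was -0.17 on the log2 scale (SE 0.21, adjusted p = 0.711).

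MAGEA2B held between 21.1% and 47.7% of the MAGEA2 and MAGEA2B sum, and the sum was lower by -0.45 with both hairpins (SE 0.18, adjusted p = 0.161). MAGED4B held between 13.1% and 58% of the MAGED4 and MAGED4B sum. That sum was 259, 191 and 225 in the control, 312 and 301 with sh4 and 308 and 326 with sh8, so that all knockdown libraries were above the control (0.48, SE 0.15, adjusted p = 0.0943, limma). MAGEA6 kept a narrow share of 38.4% to 42.6% of the MAGEA3 and MAGEA6 sum, the pair that differs at the capitals printed above.

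**Figure D4:**
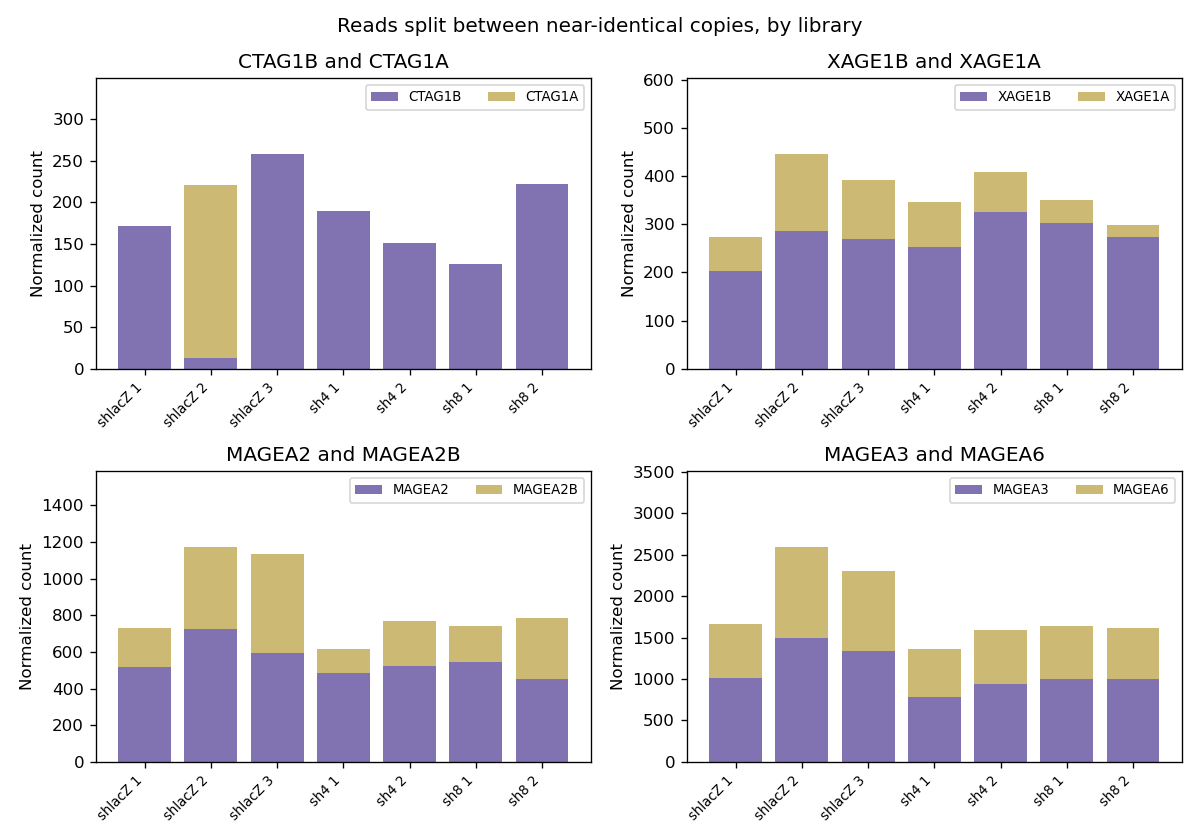
Stacked normalized counts of 4 pairs of near-identical genes in each of the 7 libraries; each bar is 1 library and its height is the sum of the pair. In the CTAG1B and CTAG1A panel the second shlacZ library changes color (93.8% CTAG1A) at a height of 221, within the 127 to 258 of the other libraries.

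GAGE genes, small acidic proteins of germ cells in a tandem X-linked array, were low throughout. GAGE12F held 26.8, 37.7 and 15.7 normalized counts in the control, 0 and 0 with sh4, and 17.1 and 10.9 with sh8. Against a floor of 3 reads per sh4 library, the control mean was 9.5-fold and the sh8 mean 4.99-fold higher. These ratios leave out the spread of both means. The limma adjusted p was 0.00052 for sh4 against the control and 0.0063 against sh8. The mean of GAGE12F over all libraries, 15.5, passed the minimum of 10 only through the control and sh8 libraries (means 26.7 and 14.03). Its place in the counts of called members is thus a description. Of its transcript 95.7% of windows occur in other GAGE genes, 12 in number. The 4 GAGE genes in the table, which also include GAGE12J, GAGE13 and GAGE2E, summed to 29.9, 45.04 and 45.2 in the control, 6.78 and 0 with sh4, and 22.4 and 12.7 with sh8. The sum was called lower with sh4 (-3.86, SE 0.75, adjusted p = 0.0058), and not with sh8 (-1.17, SE 0.75, adjusted p = 0.449) or between the hairpins (-2.69, SE 0.82, adjusted p = 0.0808). The level with sh4 remains near the floor of the assay.

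The remaining members were measured without a call. PRAME was at 6486, 7108 and 6765 in the control, 5817 and 5701 with sh4, and 6662 and 7228 with sh8. Its sh4 libraries were below the control and its sh8 libraries spanned it (sh4 -0.24, SE 0.11, adjusted p = 0.144; sh8 0.033, SE 0.11, adjusted p = 0.900, limma). PAGE5, the PAGE member in the table, was at 305 to 444 in the control and 392 to 509.8 in the knockdown (0.28, SE 0.17, adjusted p = 0.335). CTAG2, the NY-ESO-1 relative, was at 419, 729 and 678 in the control and 409 to 542 in the knockdown (-0.41, SE 0.20, adjusted p = 0.248). XAGE1B was at 202 to 286 in the control and 253 to 325 in the knockdown, and MAGEA1, the first antigen of the MAGE family to be cloned, was at 16.5 to 23.04 and 10.9 to 19.8. SSX3, MAGEB6 and MAGEH1 stayed below a mean of 10, as did CTAGE3P, and were not tested.

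Genes of the meiotic chromosome axis were low in all groups. SYCP2, a lateral element protein of the synaptonemal complex, was at 42.3, 41.9 and 40.02 in the control, 65.5 and 61.95 with sh4, and 26.4 and 37.3 with sh8. The sh4 libraries were above and the sh8 libraries below the control, but neither passed the test (0.61, SE 0.28, adjusted p = 0.149; -0.39, SE 0.28, adjusted p = 0.503), nor did the difference between them (0.999, SE 0.31, adjusted p = 0.0826, limma). SYCP3, its partner, held 28 reads in the control, 13 with sh4 and 11 with sh8, and TEX14, a protein of germ cell bridges, 22, 11 and 15. At these depths their ratios to the control had 95% counting intervals that included 1, from 0.305 to 1.28 for SYCP3 and 0.302 to 1.49 for TEX14 with sh4.

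Among the other PRDM genes, which are expressed in many tissues, PRDM2 was at 2944 to 3246 in the control and 2996 to 3813 in the knockdown, PRDM4 at 783 to 1020 and 923 to 1160, and PRDM10 at 419 to 532 and 461 to 608. These ranges overlapped in each gene, and limma called none of PRDM2, PRDM4, PRDM10, PRDM11 and PRDM15 in any comparison. Of the type II MAGE genes, MAGEF1 was at 961 to 1013 in the control and 946 to 1036 in the knockdown, and MAGED1 at 806 to 1094 and 832 to 1149. The 4 DAZ genes of the Y chromosome were tested and 0 of 4 were called in any comparison by limma or limma-voom, with 0 or 1 at an unadjusted p under 0.05. By limma, 1 of them was called with each hairpin against the control without the first shlacZ library, and between the hairpins with the replicate block and without the second sh8 library. Of the genes matched by name only, DAZAP2, a broadly expressed partner of DAZ proteins, was higher past the adjusted p with sh4 (0.46, SE 0.12, adjusted p = 0.0226, limma), at 2027, 2447 and 2214 in the control, 2951 and 3188 with sh4 and 2154 and 1950 with sh8.

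Lists of related genes set the members in context. Of 119 other germline and cancer-testis genes, 51 were in the table and 36 were tested. With both hairpins 1 was called higher, the germ cell transcription factor TFAP2C, at 32, 27.2 and 17.4 in the control, 98.3 and 75.4 with sh4 and 48.8 and 53.7 with sh8 (1.39, SE 0.33, adjusted p = 0.0435, limma). No knockdown library overlapped the control, though limma-voom did not call it. With sh4, 3 were called higher: TFAP2C (1.76, adjusted p = 0.0047), the translational repressor NANOS1 (1.75, adjusted p = 0.0011) and TDRKH, a Tudor protein of the piRNA pathway (1.26, adjusted p = 0.0149, limma). Over all genes 4.79% were called higher with sh4 and 1.30% with both hairpins. With sh4, 0 of the 36 were called lower, and their median was -0.020. Past the adjusted p alone, 3 were higher and 4 lower with sh4, beside 10.5% and 11.9% of all genes. Of the 5 tested genes of the piRNA pathway, 1 was higher and 2 were lower by that rule, with a median of -0.75. With sh8, 0 of the 36 were called by limma or limma-voom, and 7 had an unadjusted p under 0.05 (18.5% of all genes did). Values of NANOS1 were 133, 208 and 144 in the control, 436 and 653 with sh4 and 221 and 256 with sh8.

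Of 45 genes that silence germline genes, 44 were tested. The medians were -0.22 with sh4 and -0.048 with sh8. With sh4 1 was called, SUV39H2, a histone H3 lysine 9 methyltransferase first known from testis (-1.08, SE 0.16, adjusted p = 0.0018, limma), at 729, 985 and 908 in the control, 368 and 458 with sh4 and 638 and 659 with sh8. Over all genes 8.16% were called with sh4, 3.37% lower, so that 1 of 44 was below the background. Past the adjusted p alone, 8 were lower and 2 higher with sh4, beside 11.9% and 10.5% of all genes. Of the lower ones, 4 were among 15 subunits of the PRC1.6 repressor complex, which shuts down meiotic genes in somatic cells. The others were among 10 DNA methylation genes (2), 13 of H3K9 methylation (1) and 6 others (1). Of the PRC1.6 subunits, 1 was lower with sh8 (1.54% of all genes were) and 0 with both hairpins by that rule. With sh8 1 was called, UHRF1, which brings DNA methyltransferase 1 to newly copied DNA, against 1.15% of all genes called with sh8 (-1.86, SE 0.18, adjusted p = 0.0010), at 1844, 2528 and 2178 in the control, 1726 and 1910 with sh4 and 708 and 501 with sh8. UHRF1 differed between the hairpins (1.61, SE 0.19, adjusted p = 0.0019, limma). Of 23 ubiquitin ligase partners of MAGE and PRAME proteins, 20 were tested and 0 were called in the 4 comparisons by limma or limma-voom, with 3, 4, 3 and 5 at an unadjusted p under 0.05 (24.1%, 36.1%, 18.5% and 22.6% of all genes).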

How the data were processed

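RNA was extracted with TRIzol, ribosomal RNA was removed, and stranded libraries were made with the QIAseq kit. Per the study's methods, the authors removed adapters (Cutadapt), mapped reads to hg38 (STAR) and quantified genes (Salmon). Versions, the annotation release and whether strand was used in counting are not given in the sources used here. The authors deposited 1 table of normalized counts, which are counts per gene divided by a size factor per library. The unit is thus not a raw count, but 100% of values were whole multiples of the lowest value above 0 in their library (tolerance 0.01). Whole counts were therefore recovered for depth, intervals and 1 alternative, and are called reads here. Whether they are observed reads or rounded estimates from Salmon cannot be told from the values. The lowest number of reads summed over the libraries was 10 for a gene. Such scaling sets the bulk of genes equal between libraries, so a shift common to nearly all of them could not be seen. Columns of other samples numbered 0.

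The test was limma (version 3.58.1, R 4.3.3) with the variance trend on log2(normalized count + 1) for genes with a mean of at least 10. Every fold change is on this log2 scale and is compressed for genes with low counts. Both hairpins against the control were fitted with 2 levels, as in the study, and single hairpins in a fit of all 7 libraries with 3 groups. Tests were two-sided, and p-values were adjusted over all 15420 genes tested. The fits were tested on simulated data. Coordinates, transcripts and coding sequences came from GENCODE release 44, which held 53 of the 53 members, and promoters from RefSeq, which matched 38. Levels between genes were compared per kilobase of canonical transcript. Shared sequence was counted over all 100-base windows of a gene's transcript that occur in transcripts of another gene.

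Members and lists were chosen with earlier results of these data known, and the lists were written from general knowledge. Named were the called members, the 3 most abundant members of each family, the meiotic genes and PRAME, and called genes of the lists; other members, and NANOS1, TDRKH and UHRF1, were chosen after their values were seen. Levels of the Y-linked DAZ genes are not given. Alternatives were another pseudocount, minimum, scaling, variance model, replicate block, limma-voom, summed copies, call rule and sample set, and each library left out in turn.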

Additional observations from a re-analysis of the deposited data

Results flagged for a closer look

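The fold change of 4 members differed between the hairpins by a test of the difference itself (sh4 minus sh8, limma, log2 scale). TEX15 was lower under sh4 by -3.04 (adjusted p = 0.00075) and GAGE12F by -3.88 (adjusted p = 0.0063). GAGE12F had 0 reads under sh4, so that its fitted value depends on the pseudocount and its mean passed the minimum only through other libraries. PRDM1, whose mean passed the minimum only through sh4, was higher under sh4 by 4.02 (adjusted p = 0.0065) and MAGEC1 by 1.65 (adjusted p = 0.0018). The summed melanocytic markers also differed between the hairpins, at 51870 to 59740 under sh4 and 101500 to 104500 under sh8, and their part was not tested. GRASLND was at 175 and 131 under sh4 and 227 and 163 under sh8, and the difference between hairpins did not pass the test (-0.34, SE 0.22, adjusted p = 0.421).

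In 2 members 1 knockdown library lay far from the other 3, by Dixon's ratio of the gap to the whole range on the log2 scale, above its 95% critical value for 4 samples. The ratio was 0.908 for MAGEF1, where the second sh8 library was at 946 and the others at 1027 to 1036. It was 0.832 for PAGE5, where the first sh4 library was at 392 and the others at 488 to 509.8. Of 22 members tested in this way chance flags about 1 in 20.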

How the results depend on the processing

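The number of members called was 1 with both hairpins, 5 with sh4, 3 with sh8 and 4 between the hairpins. Leaving out each library in turn gave 1 to 3, 5 to 7, 1 to 5 and 2 to 5. The highest counts with sh4 and with sh8 each hold 1 DAZ gene. Between the hairpins 5 was reached with XAGE1A, without the first shlacZ library, and with 1 DAZ gene, without the second sh8 library. By the adjusted p alone the number called was 3, 8 and 5 in the first 3 comparisons. It was 5 with both hairpins as the mean in the 3-group fit, where TEX15, PRDM1, GAGE12F and MAGEC1 joined PRDM7. A minimum mean of 50 gave 3 with sh4 and 2 between the hairpins, since PRDM1 and GAGE12F were no longer tested, and no variance trend gave 1 with sh8 (the cause was not tested). Summing copies gave 2 with sh8, where XAGE1A was replaced by the XAGE1 sum. XAGE1A was also lost in the fit of sh8 and control alone (adjusted p = 0.0875), in limma-voom (0.0703) and without each library in turn other than the first shlacZ library, and PRDM7 with sh8 without the variance trend (0.0881). GAGE12F between the hairpins was lost with a pseudocount of 10 (0.0520), without the second sh4 library (0.0548) and without the first sh8 library (0.0685). Signs reversed with both hairpins in values that were not called: PRAME to 0.0078 and SYCP2 to -0.055 under quantile normalization, SYCP2 to -0.069 without the first and -0.043 without the second sh4 library, MAGED1 to -0.050 without the first shlacZ library and CTAG1B to -0.32 without the second. Over all left-out libraries SYCP2 ran from -0.069 to 0.36, MAGED1 from -0.050 to 0.17 and CTAG1B from -0.32 to 1.76. Same-numbered libraries did not deviate together in every pair (r from -0.0781 to 0.337). With 2 libraries a hairpin, deviations from the group mean mirror each other, so this check cannot decide whether the numbers mark a pairing. With the replicate block 1, 5, 2 and 5 members were called, the last with 1 DAZ gene. The sh8 count had then lost XAGE1A (adjusted p = 0.0628, limma). With both hairpins and the block the adjusted p was 0.109 for SSX2 and 0.123 for MAGED2. Scaling to the total moved the median of all genes to 0.052 with both hairpins and 0.091 with sh4. With 2 libraries a hairpin, members near the minimum of 10 are limited by counting.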
